A study of Arabidopsis thaliana with 18 samples.

Results

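Transcript levels of the magnesium branch of chlorophyll synthesis were compared between wild type (WT) and pold2 mutant seedlings of Arabidopsis thaliana. The branch was taken as 10 nuclear genes named by identifier, CHLI1, CHLI2, CHLD, CHLH, GUN4, CHLM, CRD1, PORB, PORC and CAO, and all 10 were found among the 19858 genes of the authors' deposited table. The RNA came from 3 WT and 3 pold2 libraries of untreated whole seedlings, all of ecotype C24 and 10 days old, grown at 22°C and 23 h of light per day on MS plates (0.8% agar, sucrose at 20 g/L). The labels name neither the pold2 allele nor separate cultures for the libraries, and a whole seedling mixes green shoot with root. The study asked how a mutation of POLD2, the second subunit of DNA polymerase delta, alters transcripts and chromatin.

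Chlorophyll and heme share a plastid pathway from glutamate to protoporphyrin IX, where the pathway forks. Magnesium chelatase inserts magnesium and commits the molecule to chlorophyll, whereas ferrochelatase inserts iron and commits it to heme. The magnesium porphyrin is then methylated, closed into an extra ring and reduced by an enzyme that needs light, which yields chlorophyllide. Free intermediates of the branch are phototoxic, and its genes are known to be transcribed together with those of the light-harvesting proteins during greening.

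The deposited values are FPKM (fragments scaled by transcript length and library size), pooled by the authors to 1 value per genotype, so no gene has an SD, and depth is unknown. A gene was called where the authors' q was under 0.05. The sources used here do not say how the test behind that q modelled spread. It speaks only for these libraries, and the spread between them may be technical. POLD2 itself (AT2G42120) stood at 7.21 FPKM (WT) and 2.83 FPKM (pold2) per the authors' deposited table, 2.55-fold lower (q = 0.00103). Summed over all genes, the FPKM of pold2 were 92.8% of those of WT, so scaling both genotypes to the same sum adds 0.11 to every log2 ratio and moves the median of all genes from -0.01 to 0.10. The members' median stands 0.29 below the median of all genes on the log2 scale. Scaling cannot change this difference, because it adds the same amount to every log2 ratio.

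Part of the magnesium branch fell in pold2, and no member rose. Per the authors' deposited table, 5 of the 10 genes were called lower, CHLI1, CHLI2, CHLM, PORB and PORC, where 6.47% of all genes were called lower. None of the 10 was called higher, where 5.97% of all genes were. With q under 0.01, 4 of the 10 were called lower, where 3.86% of all genes were, and with a 1.5-fold minimum 0 were, where 1.66% of all genes were. With q adjusted over genes whose mean is at least 5 FPKM, 5 were called lower, where 7.69% of those genes were. The falls were small, from 1.25-fold (PORC) to 1.399-fold (PORB), and the uncalled members were 1.04-fold to 1.21-fold lower per the authors' deposited table. All 10 pold2 values lay below their WT values, against 51.3% of all genes, although CHLH would be higher in pold2 with equal sums. The median log2 ratio of the members was -0.30, and 11.1% of the 19841 genes with both values above 0 had a lower ratio than that median. Added over the 10 genes, the level went from 5325 FPKM (WT) to 4533 FPKM (pold2), or 85.1% of WT, per the authors' deposited table.

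**Figure D1:**
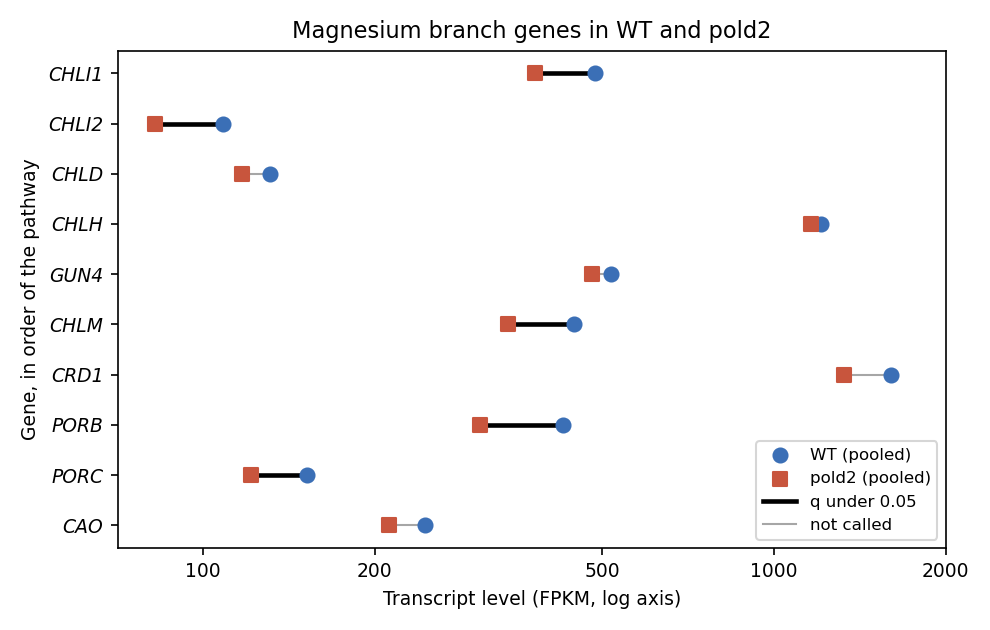
Pooled transcript level of each magnesium branch gene in WT (circles) and pold2 (squares), in FPKM on a log axis, with thick lines for genes at a q under 0.05. All 10 squares lie to the left of their circles, and the longest line is that of PORB, from 428 to 306 FPKM.

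The members are strongly expressed, and strongly expressed genes were more often lower in pold2. In WT they ranked between 64th (CRD1) and 1397th (CHLI2) of the 19858 genes of the authors' deposited table. Among the 1540 genes with a mean of WT and pold2 of at least 95.5 FPKM, the mean of the lowest member, 20.7% were called lower and 3.18% higher, and 71.4% had a lower value in pold2. The median log2 ratio of these 1540 genes was -0.11, and 9 of the 10 members lay below it, GUN4 by less than the second decimal. The members' median minus that of the 1540 genes was -0.18, a smaller difference than that from all genes. At an unadjusted p under 0.05, 7 of the 10 members were lower per the authors' deposited table, against 12.5% of all genes and 33.4% of the 1540. Whether the members differ from other genes of their level was not tested.

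**Figure D2:**
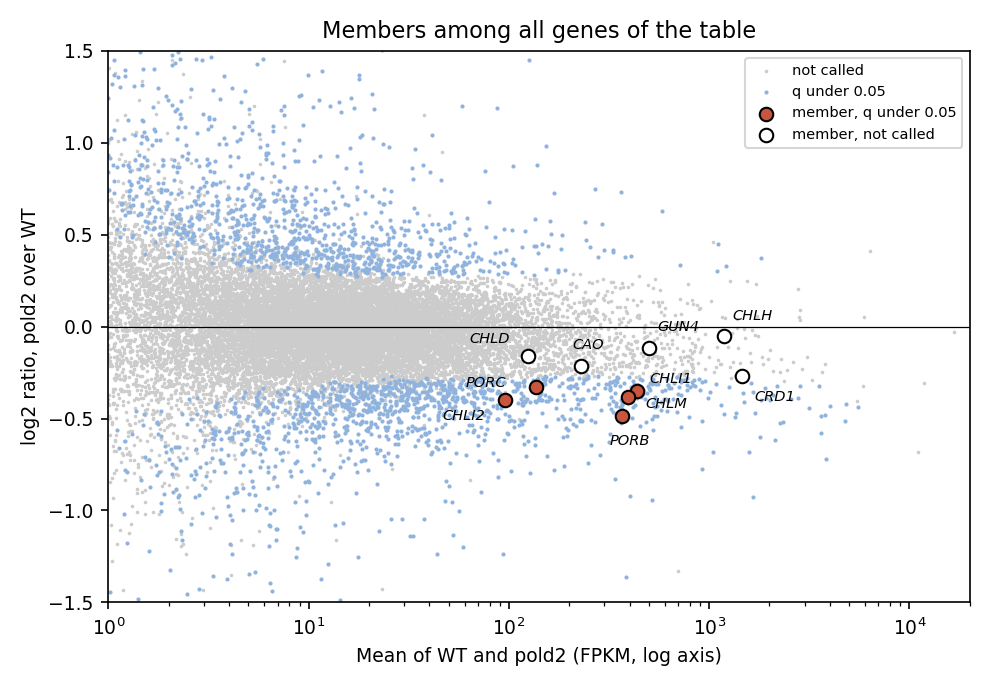
Log2 ratio of pold2 over WT against the mean FPKM of both genotypes (log axis), with all genes of the table as small points and the 10 members as large ones, filled where q was under 0.05. The 10 members lie to the right, between -0.48 and -0.05, in a region where the small points also lie mostly below 0, and points beyond the axes are not drawn.

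Magnesium chelatase opens the branch and has 3 kinds of subunit, I, D and H. CHLI1 and CHLI2 encode the I subunit, an ATPase of the AAA+ type that drives insertion of the metal. CHLI1 (AT4G18480, chromosome 4, 10201672 to 10203469, TAIR10) fell from 487 FPKM (WT) to 381 FPKM (pold2) per the authors' deposited table (1.28-fold lower, q = 0.00882). Its copy CHLI2 (AT5G45930, chromosome 5, 18628007 to 18630706, merged with AT5G45940) fell from 109 FPKM (WT) to 82.4 FPKM (pold2) per the authors' deposited table (1.32-fold lower, q = 0.00264). Both copies thus fell by a like factor, and CHLI1 made up 81.8% of their joint FPKM in WT and 82.2% in pold2. The copies are similar in sequence, so the split of reads between them is uncertain.

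The other chelatase subunits were not called. CHLD (AT1G08520, chromosome 1, 2696412 to 2700959), which forms the motor ring with the I subunit, was at 131 FPKM (WT) and 117 FPKM (pold2) per the authors' deposited table (log2 ratio -0.16, q = 0.340). CHLH (AT5G13630, chromosome 5, 4387334 to 4392227), the large subunit that binds the porphyrin and is also known as GUN5, was at 1207 FPKM (WT) and 1163 FPKM (pold2) per the authors' deposited table (log2 ratio -0.05, q = 0.879). GUN4 (AT3G59400, chromosome 3, 21948717 to 21949710), which binds porphyrin and stimulates the chelatase, was at 519 FPKM (WT) and 480 FPKM (pold2) per the authors' deposited table (log2 ratio -0.11, q = 0.545). CHLH and GUN4 had the log2 ratios nearest 0 of the 10 members. The ratio of CHLH to CHLI1 on the FPKM scale was 2.48 in WT and 3.05 in pold2, and that of CHLH to CHLD was 9.22 and 9.91. With 1 pooled value per genotype, no test of a difference between subunits could be made.

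The steps from the magnesium porphyrin to protochlorophyllide followed. CHLM (AT4G25080, chromosome 4, 12876846 to 12878651), the methyltransferase that acts on magnesium protoporphyrin IX, fell from 447 FPKM (WT) to 342 FPKM (pold2) per the authors' deposited table (1.31-fold lower, q = 0.00335). CRD1 (AT3G56940, chromosome 3, 21076505 to 21079856, merged with AT3G56950), also called CHL27, is the membrane subunit of the cyclase that closes the extra ring. It was the most abundant member in both genotypes, at 1601 FPKM (WT) and 1328 FPKM (pold2) per the authors' deposited table (1.21-fold lower), and did not pass the threshold (p = 0.0202, q = 0.115).

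Protochlorophyllide oxidoreductase, which reduces its substrate only in light, is encoded by PORA, PORB and PORC. PORB (AT4G27440, chromosome 4, 13725546 to 13727353), known to act throughout seedling life, fell from 428 FPKM (WT) to 306 FPKM (pold2) per the authors' deposited table (1.399-fold lower, q = 0.00103). This was the lowest log2 ratio of the 10 members, and 4.25% of all genes with both values above 0 had a lower ratio. PORC (AT1G03630, chromosome 1, 907642 to 909376), known as the form of light-grown plants, fell from 152 FPKM (WT) to 121 FPKM (pold2) per the authors' deposited table (1.25-fold lower, q = 0.0119). PORA, the form of dark-grown seedlings and not one of the 10, ranked 15921st of the 19858 genes in WT, at 3.24 FPKM (WT) and 2.33 FPKM (pold2) per the authors' deposited table (1.39-fold lower, q = 0.0496). Joint FPKM of the 3 genes went from 583 in WT to 429 in pold2, or 73.7% of WT. PORB gave 73.4% of that sum in WT and 71.2% in pold2, and PORC 26.1% and 28.3%. Reads shared between these similar genes could shift such shares.

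CAO (AT1G44446, chromosome 1, 16848359 to 16851224), the oxygenase that turns chlorophyllide a into its b form, was at 245 FPKM (WT) and 212 FPKM (pold2) per the authors' deposited table (1.16-fold lower), and was not called (q = 0.161 from the authors' test).

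The order of the members by level was the same in both genotypes. CRD1 stood highest, followed by CHLH, GUN4, CHLI1, CHLM, PORB, CAO, PORC, CHLD and CHLI2. On the length-corrected FPKM scale, CRD1 was 14.8 times CHLI2 in WT and 16.1 times in pold2. Which neighbours in that order differ beyond their spread cannot be said from pooled values.

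Genes of the same branch outside the 10 also fell in part. Of 8 such genes, 4 were called lower and 0 higher per the authors' deposited table, against 6.47% and 5.97% of all genes. The median log2 ratio of the 8 was -0.28. Besides PORA the genes called lower were LCAA, FLU and LIL3:1. LCAA (AT5G58250), a further cyclase subunit, fell from 280 FPKM (WT) to 202 FPKM (pold2) per the authors' deposited table (1.39-fold lower, q = 0.00103). FLU (AT3G14110), which holds back the start of the pathway when protochlorophyllide builds up, fell from 101 FPKM (WT) to 74.3 FPKM (pold2) per the authors' deposited table (1.36-fold lower, q = 0.00404). LIL3:1 (AT4G17600), a partner of geranylgeranyl reductase, fell from 227 FPKM (WT) to 182 FPKM (pold2) per the authors' deposited table (1.25-fold lower, q = 0.0161). The enzymes of the last steps were not called. DVR, the divinyl reductase, was at 189 FPKM (WT) and 159 FPKM (pold2) per the authors' deposited table (q = 0.0845). CHLP, the geranylgeranyl reductase, was at 1524 and 1326 FPKM (q = 0.293), and CHLG, the chlorophyll synthase, at 124 and 109 FPKM (q = 0.210), per the authors' deposited table. The second LIL3 gene, LIL3:2, was at 340 FPKM (WT) and 295 FPKM (pold2) per the authors' deposited table (q = 0.178).

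Upstream of the fork, some genes of the common steps fell. Of 14 of these genes per the authors' deposited table, 6 were called lower and 1 higher, against 6.47% and 5.97% of all genes. The median log2 ratio of the 14 was -0.26. HEMD (AT2G26540), the uroporphyrinogen III synthase, fell from 27.8 FPKM (WT) to 17.5 FPKM (pold2) per the authors' deposited table (1.59-fold lower, q = 0.00103). HEME1 (AT3G14930) and HEME2 (AT2G40490), which encode the next enzyme, uroporphyrinogen decarboxylase, were 1.44-fold and 1.42-fold lower per the authors' deposited table (q = 0.00103 for both). GBP (AT3G21200), a protein that binds glutamyl-tRNA reductase, was 1.31-fold lower per the authors' deposited table (q = 0.00188). HEMA1 (AT1G58290), the main glutamyl-tRNA reductase gene and the entry point of the pathway, was not called, at 553 FPKM (WT) and 500 FPKM (pold2) per the authors' deposited table (q = 0.435). The gene called higher was HEMA3 (AT2G31250), at 1.39 FPKM (WT) and 2.01 FPKM (pold2) per the authors' deposited table (q = 0.0486). HEMA1 and HEMA3 were picked out after their values were seen.

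On the iron side of the fork 1 of 7 genes was called lower and 1 higher per the authors' deposited table, against 6.47% and 5.97% of all genes. The median log2 ratio of the 7 was -0.07, and 0.04 with equal sums. These 7 genes stood at 3.65 to 143 FPKM in WT, and only HO1 was above the lowest member (108.5 FPKM). Whether the sides of the fork differ in their response was not tested. HO3 (AT1G69720), a minor heme oxygenase gene, rose from 3.65 FPKM (WT) to 5.55 FPKM (pold2) per the authors' deposited table (1.52-fold higher, q = 0.00404). HO2 (AT2G26550), a heme oxygenase-like gene, fell from 92.9 FPKM (WT) to 75.3 FPKM (pold2) per the authors' deposited table (1.23-fold lower, q = 0.0234). The ferrochelatase gene FC2, which draws on the same substrate as magnesium chelatase and was picked out after its value was seen, was at 51.8 FPKM (WT) and 49.4 FPKM (pold2) per the authors' deposited table (q = 0.749).

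None of 10 genes of chlorophyll breakdown was called per the authors' deposited table, where 12.4% of all genes were called either way. The median log2 ratio of the 10 was 0.05. These 10 genes stood at 0.59 to 63.9 FPKM in WT, below every member (108.5 FPKM or more). At an unadjusted p under 0.05, 2 of them were higher and 0 lower per the authors' deposited table, against 11.5% and 12.5% of all genes. NYC1, the chlorophyll b reductase, was at 63.9 FPKM (WT) and 61.9 FPKM (pold2) per the authors' deposited table (q = 0.842). PAO, the oxygenase that opens the ring, was at 29.4 FPKM (WT) and 30.9 FPKM (pold2) per the authors' deposited table (q = 0.751). Whether synthesis and breakdown genes differ in their response was not tested.

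Of 13 regulators of greening, 3 were called lower and 0 higher per the authors' deposited table, against 6.47% and 5.97% of all genes. The median log2 ratio of the 13 was -0.19. GNL (AT4G26150), a GATA factor that promotes greening, fell from 6.65 FPKM (WT) to 4.34 FPKM (pold2) per the authors' deposited table (1.53-fold lower, q = 0.00264). PIF4 (AT2G43010) and PIF5 (AT3G59060), phytochrome-interacting factors that promote elongation, were 1.32-fold lower (q = 0.00188) and 1.21-fold lower (q = 0.0426) per the authors' deposited table. GLK1 and GLK2, factors known to activate genes of the magnesium branch, were not called and were picked out after their values were seen. GLK1 was at 67.6 FPKM (WT) and 70.2 FPKM (pold2) (q = 0.812), and GLK2 at 123 and 104 FPKM (q = 0.0791), per the authors' deposited table.

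Some markers of green tissue fell too. Of 12 such genes 8 were called lower, 0 higher and 4 not called per the authors' deposited table, with a median log2 ratio of -0.39. Among all genes 6.47% were called lower and 5.97% higher, and among the 1540 genes at or above the lowest member's mean 20.7% and 3.18%. Their summed level went from 59909 FPKM (WT) to 50238 FPKM (pold2), or 83.9% of WT, beside 85.1% for the branch. LHCA1, LHCB6, LHCA3 and LHCA2, which encode antenna proteins of the photosystems, were 1.65-fold, 1.43-fold, 1.32-fold and 1.31-fold lower per the authors' deposited table. RBCS1A, a Rubisco small subunit gene picked out after its value was seen, was at 16839 FPKM (WT) and 16515 FPKM (pold2) per the authors' deposited table (q = 0.979). It was the largest single part of the markers' summed level, at 98.1% of WT, and so raises the percentage of that sum. RCA, also picked out after its value was seen, was the only one of the 12 with a higher value in pold2. It was at 5812 FPKM (WT) and 6035 FPKM (pold2) per the authors' deposited table (q = 0.902). Of 13 root markers per the authors' deposited table, 0 were called lower and 1 higher, against 6.47% and 5.97% of all genes. The 1 called higher was the iron transporter gene IRT1 (AT4G19690), from 77.3 to 112 FPKM (q = 0.00103). Summed root markers stood at 152 FPKM (WT) and 183 FPKM (pold2), and without IRT1 at 74.3 and 71.1 FPKM. The root marker NRT2.1 was not among the deposited genes, all of which reach at least 0.50 FPKM in 1 genotype or both. No marker found there was at 0. In WT the root markers stood at 0.72 to 77.3 FPKM, below every green tissue marker (1127 FPKM or more). The part of tissue composition in the lower levels of the branch was not tested, and in whole seedlings fewer green cells and less RNA per green cell cannot be told apart.

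**Figure D3:**
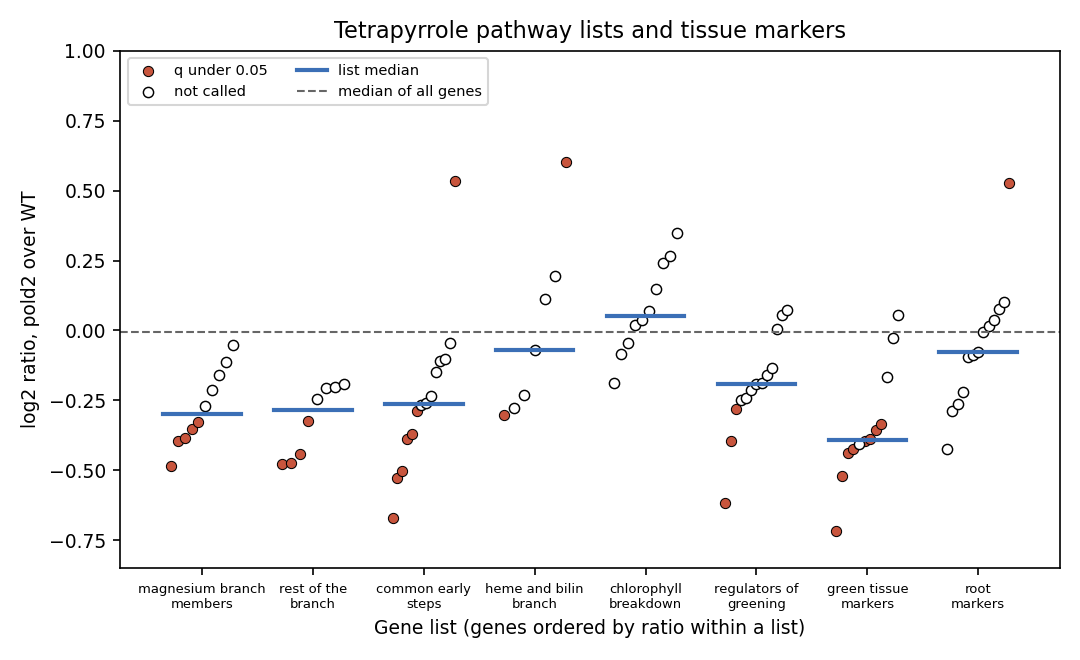
Log2 ratio of pold2 over WT for each gene of 8 lists, ordered by ratio within a list, filled where q was under 0.05, with the list median as a bar and the median of all genes as a dashed line. The magnesium branch members, the rest of the branch and the common early steps have medians of -0.30, -0.28 and -0.26, the breakdown genes 0.05. All breakdown genes stood at a lower WT level than any member.

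Chromatin at the members was described from WT peak lists, with 1 library per mark and no pold2 peaks analysed here. All 10 members lay under a peak of H3K4me3, the mark of active promoters, within 500 bp of the locus. So did 86.4% of all genes and 96.0% of the 1540 genes at or above the lowest member's mean. None lay under a peak of H3K27me3, the Polycomb mark, against 15.3% of all genes and 8.18% of the 1540. None lay under a peak of H3K9me2, the mark of silent repeats, against 0.680% of all genes and 0.584% of the 1540.

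The H3K4me3 peaks over the members were 1261 to 4562 bp wide, with a median of 2030.5 bp, against 1334 bp for all 15782 peaks and 1534.5 bp for the peaks over the 1540 genes. Peaks over GUN4, CRD1 and PORB covered the whole locus, and the other 7 covered 1 end of it. The PORB peak ran 1703 bp past the high-coordinate end of the locus. The authors' peak scores were at 3100 for CHLH, GUN4, CHLM, CRD1 and PORB, a score that 2053 peaks share. CHLD had the lowest score, 1325, the only one of the 10 under the list's median of 1514. PORA, at 3.24 FPKM in WT, was the only gene of the 18 of the branch with no H3K4me3 peak within that distance.

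Distances to the silent marks varied widely. The nearest H3K27me3 peak lay 0.280 kb from the CHLM locus and between 4.67 and 15.96 kb from the others. For H3K9me2 the nearest peak lay 0.646 kb from CHLI2, 1.99 kb from CAO and 51.0 to 348 kb from the other members. The locus of CHLI2 is merged in the table with that of AT5G45940, and that of CRD1 with AT3G56950. Coordinates, peak cover and distances given for those loci therefore include the neighbour.

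**Figure D4:**
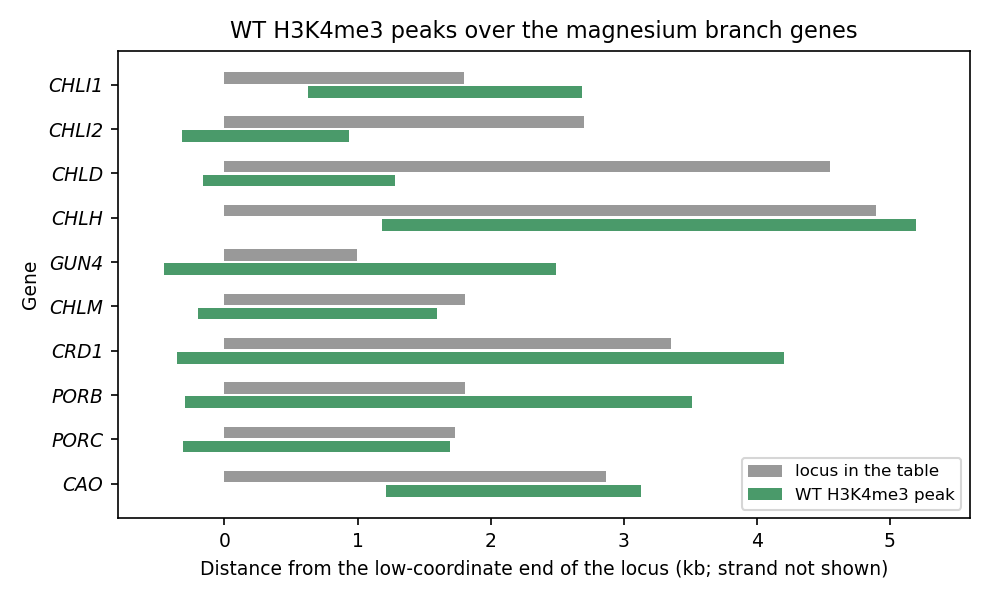
WT H3K4me3 peaks (lower bars) and the loci of the table (upper bars) for the 10 members, as distance in kb from the low-coordinate end of each locus, with no strand shown. Peaks over GUN4, CRD1 and PORB span the whole locus, and those over CHLI1, CHLH and CAO cover its high-coordinate end only.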

How the data were processed

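The authors deposited 1 table of pooled FPKM per genotype with a log2 fold change of pold2 over WT, a p-value and a q-value, per the file headers. The submitters' processing notes name TopHat2 2.1.1, Cuffdiff 2.1.1 and TAIR10, with no role given. The deposited q equals a Benjamini-Hochberg adjustment of that p over all 19858 genes to within 5.28e-07, and 965 genes share the smallest p of 5e-05. Recomputed log2 ratios agreed to within 0.001 in 19840 of 19841 genes. Peak lists carry 1 score for each peak, deposited by the authors, and peak names starting with MACS; the sources used here give no caller settings.

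Genes were counted at q under 0.05, with no test across libraries. Of 19771 genes matched to the TAIR10.1 gene table, locus starts were 1 below it for 3537, equal for 122 and otherwise different for the rest. All starts were raised by 1. All 100 listed identifiers matched that table. Members and lists were chosen with earlier results of these data known. The rule named POLD2, all members, the 8 further branch genes and up to 4 called genes per other list by smallest q, or the 2 most expressed where none was called. The adjustment and the overlap (at least 1 bp) were tested on simulated data. Python 3.11.15 with pandas 2.3.3 was used.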

Additional observations from a re-analysis of the deposited data

How the results depend on the processing

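The 5 falls among the members became 4 at q under 0.01 (3.86% of all genes lower), remained 5 when adjusted over genes averaging at least 5 FPKM (7.69%), and became 0 with a 1.5-fold minimum (1.66%). At q under 0.01 the lower calls went from 4 to 2 in the rest of the branch, from 8 to 4 among green tissue markers and from 1 to 0 in the heme branch, and the higher call of the early steps from 1 to 0. Scaling to the same summed FPKM, chosen after seeing the data, moved the members' median log2 ratio from -0.30 to -0.19 and turned CHLH to 0.054, and the medians of the heme branch to 0.039, the clock genes to 0.088 and the root markers to 0.030. Median-ratio scaling and pseudocounts of 1 and 5 FPKM left every member's log2 ratio within 0.1 of its value. With the better-scoring 50% of peaks, 9 of 10 members kept an H3K4me3 peak. No paired analysis was possible because the table holds 1 pooled value per genotype, which also left no replicate to leave out. Depth and the spread between libraries are unknown, so falls of 1.25-fold to 1.399-fold rest on the authors' test alone.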

Other observations

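None of 10 circadian clock genes was called per the authors' deposited table, where 12.4% of all genes were called either way. The median log2 ratio of the 10 was -0.02. At an unadjusted p under 0.05, 1 was lower and 2 were higher per the authors' deposited table, against 12.5% and 11.5% of all genes. LHY was at 111 FPKM (WT) and 114 FPKM (pold2), and CCA1 at 77.7 and 70.2 FPKM, per the authors' deposited table (q = 0.880 and 0.375). Genes of the magnesium branch are known to follow the clock. Whether the clock has a part in the lower levels of the branch was not tested.

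The neighbours merged with members' loci were not called. NUDT11 (AT5G45940), beside CHLI2, was at 15.9 FPKM (WT) and 16.7 FPKM (pold2) per the authors' deposited table (q = 0.944). SIP2;1 (AT3G56950), beside CRD1, was at 27.2 FPKM (WT) and 30.7 FPKM (pold2) per the authors' deposited table (q = 0.946).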
